A study of Rattus norvegicus with 36 samples.

Results

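Binding of the glucocorticoid receptor (GR) and of phosphorylated CREB (pCREB) was examined around Fkbp5, Dusp1 and Per1, 3 genes that are well known to respond to glucocorticoids. The members are all regions of the deposited table that start inside a window around each gene in the rat genome build rn6, and the 3 windows had been chosen by their GR values with corticosterone in these same libraries. The windows were chr20:7900000-8200000 for Fkbp5, chr10:16900000-17050000 for Dusp1 and chr10:55620000-55750000 for Per1. They held 24 of the 20029 regions, 12 of 5307 GR regions and 12 of 14722 pCREB regions. Regions are named below by window, by antibody (G for GR, P for pCREB) and by order along the chromosome, so that Fkbp5-G1 is the first GR region of the Fkbp5 window.

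The libraries came from dissected hippocampi of male Sprague-Dawley rats in a study of how glucocorticoids strengthen memory formation. Rats had either no training or training, and had received either Vehicle or Corticosterone, the main glucocorticoid of rats. This gave 4 conditions, untrained and trained with vehicle, and untrained and trained with corticosterone, each with 4 GR and 4 pCREB libraries named A to D. The sources used here do not give the training task, the dose, the time between treatment and dissection or the age of the rats. Each library is a pool of 4 hippocampi from 2 rats, divided between the 2 antibodies, so that single animals and single cell types cannot be seen. A change in how many cells carry a bound site and a change in binding per cell cannot be told apart in such pools. Conditions ran in separate sequencing lanes, numbered 5 to 8 in the labels, so that lane and condition cannot be told apart.

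GR is a nuclear receptor that stays largely in the cytoplasm without hormone and enters the nucleus when corticosterone binds it, where it can bind DNA at palindromic response elements or through other factors. CREB sits at cyclic AMP response elements (CREs), and its phosphorylation by kinases downstream of neuronal activity is a mark of activation. Fkbp5 encodes a co-chaperone of the GR complex that lowers the affinity of GR for hormone, and GR sites are known in its introns. Dusp1 encodes a phosphatase that switches off MAP kinases. Per1 encodes a component of the circadian clock that is also an acute target of both glucocorticoid and cyclic AMP signalling.

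The Dusp1 promoter is shown because a pCREB region lies in its window and CRE matches were found in the sequence. It is the 250 bases before the RefSeq gene start, chr10:17184603-17184852 on the plus strand of build GRCr8. CRE matches are in capitals.
Dusp1 promoter: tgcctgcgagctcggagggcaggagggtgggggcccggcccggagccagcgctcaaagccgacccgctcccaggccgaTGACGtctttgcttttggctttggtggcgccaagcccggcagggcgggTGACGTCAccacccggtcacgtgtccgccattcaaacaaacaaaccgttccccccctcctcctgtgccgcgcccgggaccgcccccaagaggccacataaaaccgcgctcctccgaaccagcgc
The full CRE, TGACGTCA, occurred once, at bases 124 to 117 before the start, and is held by 1.59% of 33469 RefSeq promoters of the same length. The core of the CRE, TGACG on either strand, occurred 3 times, 2 of them inside the full CRE and 1 at bases 172 to 168, and 18.2% of promoters held it. The promoters of Fkbp5 and Per1, cut in the same way, held neither motif. RefSeq lists 4 transcripts for Fkbp5 and 3 for Per1, and only the bases before 1 start of each gene were searched. A motif at another start or farther away would have been missed. None of the 3 promoters held the GR palindrome, GNACA followed after any 3 bases by its reverse complement TGTNC (0.373% of promoters), or the GR hexamer AGAACA on either strand (17.5%). These are matches of letters and not bound sites. The regions below have rn6 coordinates, and no rn6 annotation was used here, so that no distance from a region to a gene start is given and no region can be placed on this promoter. In the RefSeq order of genes in GRCr8, Fkbp5 lies between Tulp1 and Armc12, Dusp1 between Ergic1 and Neurl1b, and Per1 between Vamp2 and Hes7. A region in a window may belong to such a neighbour.

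The 2 antibodies gave different layouts in the 3 windows. Of the 12 GR regions, 7 lay in the Fkbp5 window, 1 in the Dusp1 window and 4 in the Per1 window, and the 12 pCREB regions were split 5, 1 and 6. An overlap of 1 bp or more with a pCREB region was found for 4 of the 12 GR regions (33.3%), against 4253 of 5307 GR regions in the whole list (80.1%). GR values with corticosterone chose the windows, and Dusp1-G1, Fkbp5-G2, Fkbp5-G3 and Fkbp5-G4 had no such overlap. The 2 shares are therefore a description, and nothing is read from their difference. From the other side, 4 of the 12 pCREB regions (33.3%) overlapped a GR region, against 4243 of 14722 (28.8%). The 4 overlapping pairs were Fkbp5-G1 with Fkbp5-P3, Per1-G1 with Per1-P1, Per1-G2 with Per1-P4, and Per1-G4 with Per1-P6. In the Fkbp5 window, 4 GR regions stood close together at the right: Fkbp5-G4 and Fkbp5-G5 were 645 bp apart, and Fkbp5-G6 and Fkbp5-G7 followed after gaps of 3977 bp and 5327 bp.

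**Figure D1:**
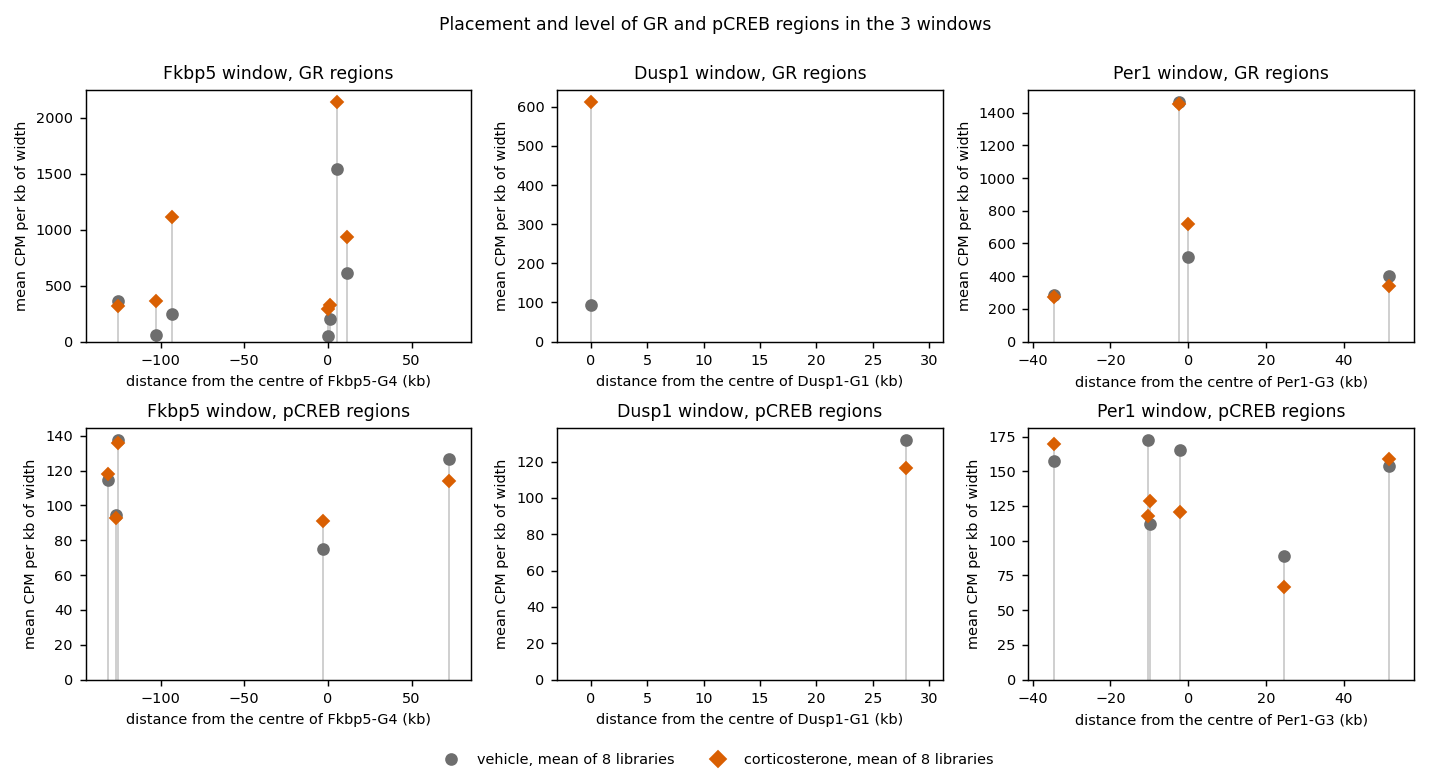
Mean level of each GR region (top) and pCREB region (bottom) in CPM per kb of region width, against distance in kb from the centre of 1 GR region of each window; grey circles are means of 8 vehicle libraries and orange diamonds means of 8 corticosterone libraries. The marks of Dusp1-G1 stand at 93.5 and 612 CPM per kb, while all pCREB marks lie between 66.5 and 172 CPM per kb.

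Levels are given as reads and as CPM, reads scaled to a common library total over the tested regions of that antibody's list after TMM. The 16 GR libraries had 55254 to 173176 reads in GR regions, so that 1 read was worth 5.42 to 23.8 CPM. The pCREB libraries held 143219 to 562249 reads and 1 read was worth 1.74 to 7.97 CPM. A count of 0 allows up to 3 reads, which is 16.3 to 71.3 CPM in a GR library. The shallowest GR library, untrained vehicle B, had 55254 reads, and the shallowest pCREB library, trained corticosterone A, had 143219. Peak calls beside the regions named 196 to 4849 GR regions and 1169 to 12882 pCREB regions in a library, with the fewest GR calls in untrained vehicle A. Because GR values with corticosterone chose the windows, these values are a description at the members and carry no p.

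Dusp1-G1 was the single GR region of the Dusp1 window (chr10:16942351-16942910, 560 bp). It had 3, 3, 4 and 12 reads in untrained vehicle libraries A to D and 49, 36, 23 and 91 reads in untrained corticosterone libraries. In trained rats it had 3, 6, 4 and 3 reads with vehicle and 34, 43, 43 and 39 with corticosterone. Every corticosterone library lay above every vehicle library, and the highest vehicle value was in untrained vehicle D. Mean levels were 66.2 ± 43.0 and 414 ± 190 CPM in untrained rats, and 38.5 ± 16.6 and 271 ± 41.2 CPM in trained rats (SD, n = 4 each). The fitted change with corticosterone, averaged over training, was 6.68-fold (95% interval 4.43 to 10.1), a log2 fold change of 2.74 (SE 0.289). It was 2.68 in untrained and 2.80 in trained rats. Peaks had been called there in 4 of 4 libraries of each corticosterone condition and in 0 of 4 of each vehicle condition.

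Fkbp5-G4 had the largest fitted corticosterone change of the Fkbp5 window (chr20:8091823-8092175, 353 bp). Peaks had been called there in only 2 of 4 untrained and 3 of 4 trained corticosterone libraries, and in 0 of 4 of each vehicle condition. Reads in libraries A to D were 1, 2, 0 and 3 in untrained vehicle and 14, 5, 7 and 33 in untrained corticosterone. They were 1, 4, 0 and 0 in trained vehicle and 10, 11, 16 and 16 in trained corticosterone. The groups did not overlap, but vehicle libraries were at or near 0 and 3 of them had no read. Mean levels were 17.7 ± 19.7 CPM with vehicle and 104 ± 59.8 CPM with corticosterone (SD, n = 8 each). The fitted change was 2.75 on the log2 scale (SE 0.535), or 6.74-fold (3.14 to 14.5). Without trained vehicle B, which holds 4 of the 5 trained vehicle reads, it was 3.61. That was the highest of the values without 1 library, which ranged from 2.46 to 3.61. Per kb of width this was the weakest GR member, with a mean over all libraries of 172 CPM per kb, at the 0.452 percentile of the GR list.

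Fkbp5-G3 (chr20:7998838-7999373, 536 bp) had a mean over all libraries of 676 CPM per kb, at the 94.5 percentile of the GR list. It had 1110 CPM per kb with corticosterone and 242 with vehicle, so that level came mostly from the corticosterone libraries. Its reads are printed, as are those of the members that follow in this window, although the naming rule did not ask for them, and they were added after their values were seen. Untrained vehicle libraries A to D had 1, 17, 8 and 16 reads and untrained corticosterone libraries 103, 44, 31 and 125. Trained vehicle libraries had 9, 14, 6 and 11 reads and trained corticosterone libraries 75, 90, 60 and 109. Reads did not overlap between vehicle and corticosterone, but in CPM 1 vehicle library did, untrained vehicle B at 404 CPM against 270 CPM in the lowest corticosterone library. Group means were 162 ± 174, 630 ± 317, 98.3 ± 43.6 and 560 ± 89.9 CPM in the order untrained rats with vehicle and with corticosterone, then trained rats with vehicle and with corticosterone (SD, n = 4 each). The fitted log2 fold change was 2.34 (SE 0.421), a 5.08-fold difference (2.75 to 9.40). Peaks had been called in 2, 4, 0 and 4 libraries of the conditions in that order.

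Fkbp5-G2 lay 9424 bp to the left of Fkbp5-G3 (chr20:7989192-7989414, 223 bp) and did not pass the filter on low counts, so that it was not tested. Reads in libraries A to D were 0, 0, 4 and 3 in untrained vehicle and 16, 5, 6 and 15 in untrained corticosterone. They were 2, 0, 1 and 1 in trained vehicle and 9, 12, 9 and 14 in trained corticosterone. As at Fkbp5-G4, every corticosterone library was above every vehicle library. This held at 0.322% of all tested GR regions, a share that does not cover regions that failed the filter, such as Fkbp5-G2. Nothing is read from it, since GR values with corticosterone chose the window. Mean levels were 12.4 ± 13.3 CPM over the 8 vehicle libraries and 80.6 ± 29.2 CPM over the 8 corticosterone libraries (SD), and a fit with no filter gave a log2 fold change of 2.48 (SE 0.454).

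The other GR regions of the right-hand group and Fkbp5-G1 had fitted log2 fold changes between -0.20 and 0.79, and at all of them vehicle and corticosterone libraries overlapped. Fkbp5-G6 (chr20:8097172-8097598) was the strongest GR member, at 1838 CPM per kb and the 98.9 percentile of the GR list, and had a peak call in all 16 libraries. Its reads in libraries A to D were 29, 76, 22 and 82 in untrained vehicle and 152, 93, 71 and 188 in untrained corticosterone. They were 58, 76, 24 and 53 in trained vehicle and 88, 149, 92 and 124 in trained corticosterone. Mean levels were 657 ± 527 CPM with vehicle and 913 ± 295 CPM with corticosterone (SD, n = 8 each), and the groups overlapped. Untrained vehicle libraries ranged from 175 CPM in library C to 1805 CPM in library B. The fitted log2 fold change was 0.50 (SE 0.369), and the values without 1 library ranged from 0.35 to 0.90. The highest was that without untrained vehicle B.

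Fkbp5-G7 (chr20:8102925-8103432) had 16 to 41 reads with vehicle (median 25) and 32 to 103 reads with corticosterone (median 61.5). Its mean levels were 312 ± 203 and 474 ± 160 CPM (SD, n = 8 each), and the groups overlapped. The fitted log2 fold change was 0.67 (SE 0.304), and the values without 1 library ranged from 0.53 to 0.94. Again the highest was that without untrained vehicle B. Fkbp5-G5 (chr20:8092820-8093195), next to Fkbp5-G4, had 3 to 11 reads with vehicle (median 6) and 7 to 24 with corticosterone (median 18). Its fitted log2 fold change was 0.79 (SE 0.305), beside 2.75 at Fkbp5-G4 at a distance of 645 bp; the difference between the 2 regions was not tested. Fkbp5-G1 (chr20:7966028-7966773), the GR region that overlaps a pCREB region, had 269 ± 82.5 CPM with vehicle and 240 ± 36.7 CPM with corticosterone (SD, n = 8 each), and a log2 fold change of -0.20 (SE 0.189).

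**Figure D2:**
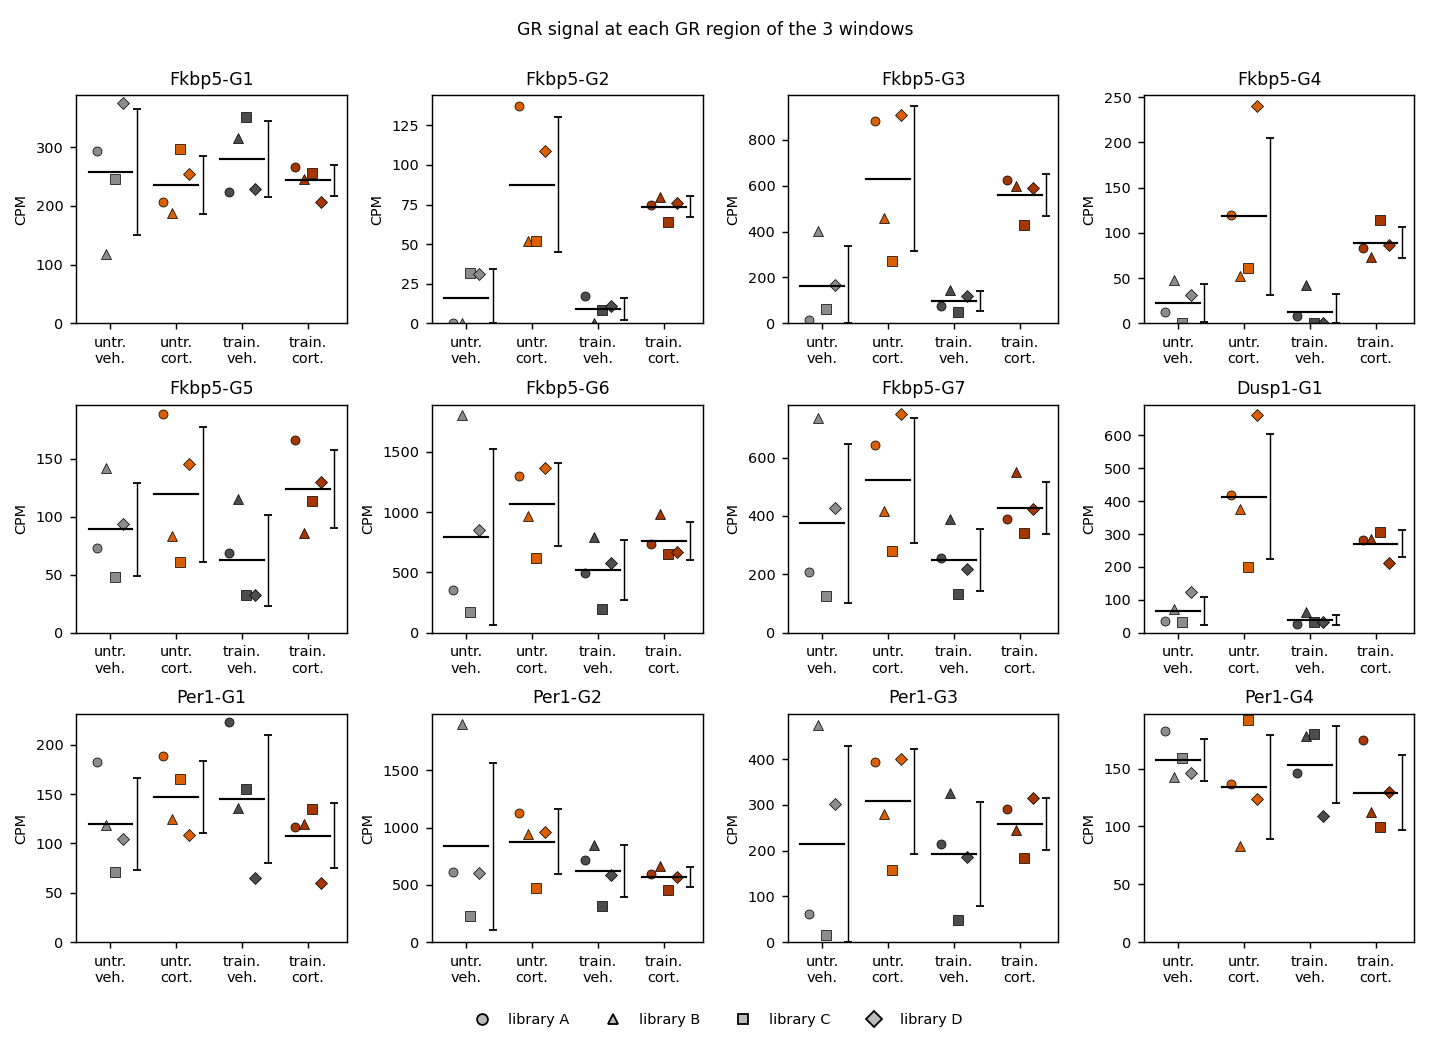
GR signal in CPM at each of the 12 GR regions, 1 mark per library (shape gives the library letter A to D), with the mean of 4 libraries as a line and the SD as a bar, drawn no lower than 0. Marks of Dusp1-G1, Fkbp5-G2 and Fkbp5-G4 do not overlap between vehicle (grey) and corticosterone (orange), whereas those of all 4 Per1 regions do. Every corticosterone library was above every vehicle library at 0.322% of all tested GR regions, which do not include Fkbp5-G2.

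At all 4 GR regions of the Per1 window vehicle and corticosterone libraries overlapped. Per1-G3 had the largest fitted change (chr10:55685797-55686189, 393 bp). Its reads in libraries A to D were 5, 20, 2 and 29 in untrained vehicle and 46, 27, 18 and 55 in untrained corticosterone. They were 25, 31, 6 and 17 in trained vehicle and 35, 37, 26 and 58 in trained corticosterone. The vehicle libraries were spread widely: group means were 214 ± 215, 308 ± 115, 193 ± 114 and 259 ± 57.2 CPM in the order of conditions used above (SD, n = 4 each). The fitted log2 fold change was 0.60 (SE 0.469), and the values without 1 library ranged from 0.37 to 0.92. The highest was that without untrained vehicle B, the library with the highest value of 475 CPM.

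Per1-G2 lay 1887 bp to the left of Per1-G3 (chr10:55683414-55683910, 497 bp) and was the strongest GR region of the Per1 window, at 1460 CPM per kb and the 98.4 percentile of the list. A peak had been called there in all 16 libraries. Its reads, also added after they were seen, were 50, 80, 29 and 58 in untrained vehicle and 132, 91, 54 and 132 in untrained corticosterone. They were 84, 81, 39 and 54 in trained vehicle and 71, 100, 64 and 105 in trained corticosterone. Mean levels were 728 ± 514 CPM with vehicle and 723 ± 254 CPM with corticosterone (SD, n = 8 each), a log2 fold change of -0.01 (95% interval -0.69 to 0.67). Without untrained vehicle B, at 1900 CPM, the value was 0.40, and the values without 1 library ranged from -0.15 to 0.40. Per1-G1 (chr10:55651165-55651633) and Per1-G4 (chr10:55737504-55737890) each overlap a pCREB region. Their log2 fold changes were -0.07 (SE 0.261) and -0.25 (SE 0.211), with 60 to 223 CPM and 83 to 192 CPM over all 16 libraries.

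As a description of where these values stand in the whole list, 3 of the 11 GR members that passed the filter (Dusp1-G1, Fkbp5-G3 and Fkbp5-G4) were among the 82 of 4968 tested GR regions (1.65%) called higher with corticosterone averaged over training, and 0 were lower, like 0.0201% of the list. The call rule was edgeR's quasi-likelihood test at an adjusted p under 0.05. The choice of windows used this contrast. Dusp1-G1, Fkbp5-G4 and Fkbp5-G5, with few vehicle reads, passed the filter through their corticosterone libraries. These counts therefore support nothing, and nothing is read from them or from those that follow in this paragraph. Among the 11 members the median log2 fold change was 0.60, and it was -0.07 over all tested regions. DESeq2 gave the same number, 3 members, with 2.05% of the list called in either direction, whereas the 1.65% above counts higher regions only. Within untrained rats 1 member was called, Dusp1-G1, where 0.302% of tested regions were higher. The number was 3 when untrained vehicle B or untrained corticosterone C was left out, with Fkbp5-G3 and Fkbp5-G4 added, and 0 when only the 8 untrained libraries were fitted. Within trained rats 1 member was called, again Dusp1-G1, where 0.121% of tested regions were higher. That number was 2 without untrained vehicle A, B or C or untrained corticosterone C, with Fkbp5-G3 added, and 2 without trained vehicle B, with Fkbp5-G4 added. Non-overlap of CPM, every corticosterone library above every vehicle library, was found at Dusp1-G1 and Fkbp5-G4 among the tested members and at 0.322% of all tested GR regions. The opposite, every corticosterone library below every vehicle library, was found at 0 members and at 0.0403% of tested regions.

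The corticosterone effect on GR did not pass a test for a difference between trained and untrained rats at any member. In edgeR's interaction test 0 of the 11 members passed, 0 had an unadjusted p under 0.05, and DESeq2 also gave 0. In the whole list 0% passed and 3.7% had an unadjusted p under 0.05. The difference between the trained and the untrained log2 fold change was 0.13 at Dusp1-G1 (95% interval -1.05 to 1.30), 0.36 at Fkbp5-G3 (-1.40 to 2.12) and 0.10 at Fkbp5-G4 (-1.86 to 2.06). Every member had an adjusted p of 0.99986. Each of these 3 intervals includes a difference of 1 log2 unit in either direction, so that a difference of that size is not excluded with 4 libraries a condition. Per1-G1 had the value farthest from 0, -0.82 (-1.89 to 0.25), with 0.34 in untrained and -0.48 in trained rats.

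Training had no effect on GR that passed the test at any member either. Averaged over treatment, 0 of 11 members passed in edgeR and 0 in DESeq2, and 1 had an unadjusted p under 0.05. Over the whole list 0% passed in edgeR, 0.0201% in DESeq2, and 3.58% had an unadjusted p under 0.05. The 1 member was Dusp1-G1, with a log2 difference of -0.69 between trained and untrained rats (95% interval -1.33 to -0.05, adjusted p = 0.985 in edgeR with Benjamini-Hochberg adjustment). Its means were 155 ± 128 CPM in 8 trained and 240 ± 226 CPM in 8 untrained libraries (SD), and the groups overlapped. Within corticosterone libraries the difference was -0.63 (SE 0.303) and within vehicle libraries -0.75 (SE 0.545), and neither passed. Within corticosterone 0 of 11 members passed in edgeR and DESeq2 and 1 had an unadjusted p under 0.05 (0% and 3.7% of the list). Within vehicle the numbers were 0 and 0 (0% and 3.06%). The fitted difference was below 0 at 10 of the 11 members, with a median of -0.36 against -0.01 over all tested regions, but at 6 members the sign changed in 1 or more alternative fits. The share of all tested regions below 0 is not given here. Members are not independent of each other, as at Fkbp5-G6 and Fkbp5-G7 (Pearson r = 0.968 over the GR libraries), so nothing is read from this count. Values ranged from -0.69 to 0.05, and Fkbp5-G6 had -0.54 (-1.30 to 0.22). Without untrained vehicle B the values were -0.15 at Fkbp5-G6 and 0.04 at Fkbp5-G3, which had been -0.36.

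**Figure D3:**
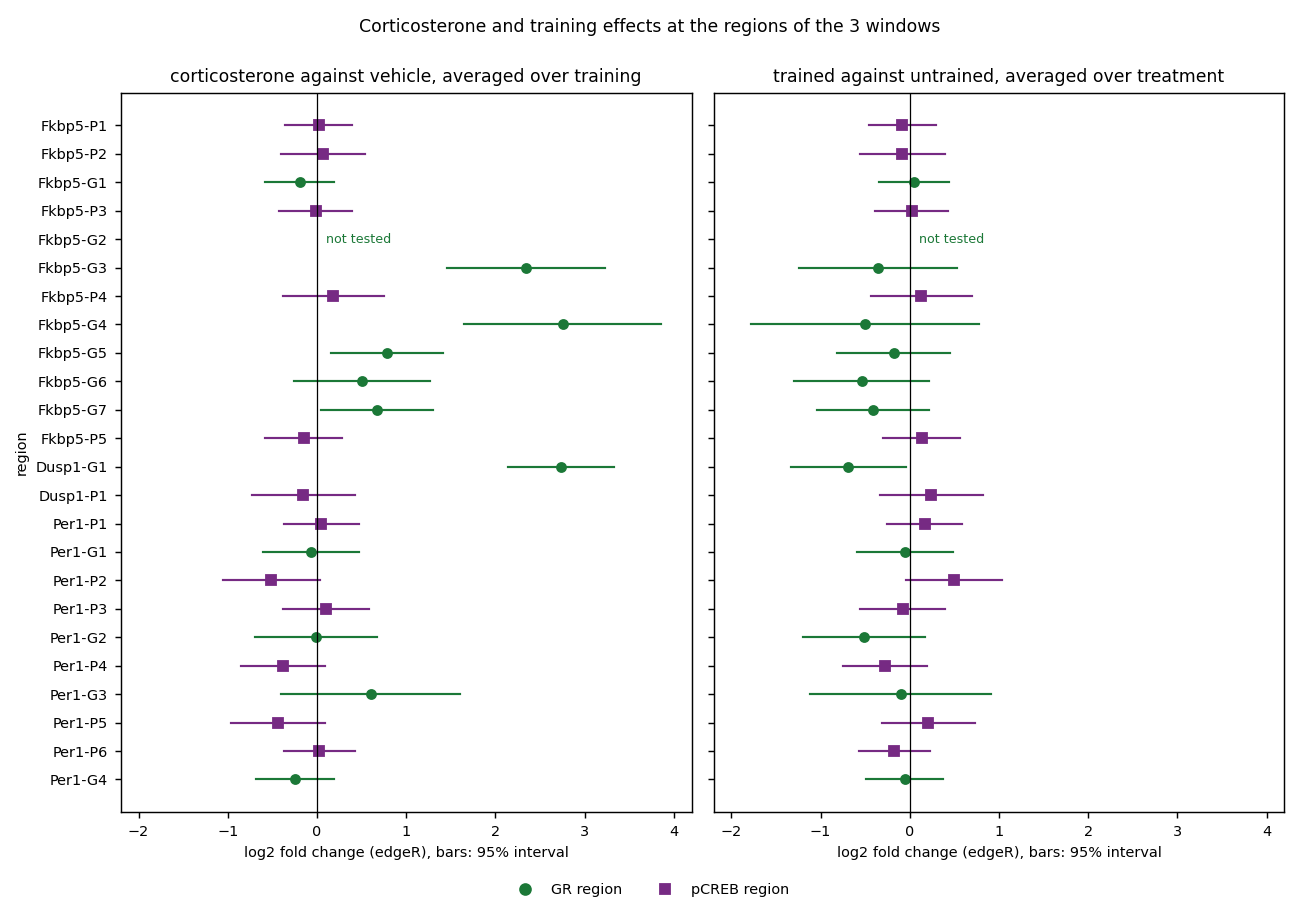
Log2 fold changes with 95% intervals from edgeR at the members, for corticosterone against vehicle (left) and trained against untrained (right); green circles are GR regions and purple squares pCREB regions, and Fkbp5-G2 was not tested. On the left Dusp1-G1, Fkbp5-G3 and Fkbp5-G4 lie at 2.74, 2.34 and 2.75, and the pCREB values lie between -0.51 and 0.18.

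The pCREB signal at the same loci did not differ detectably between vehicle and corticosterone. None of the 12 pCREB members passed the corticosterone test averaged over training in edgeR (0 of 12) or in DESeq2 (0 of 12), and 0 had an unadjusted p under 0.05. In the whole pCREB list 0% of 14553 tested regions passed and 4.87% had an unadjusted p under 0.05. Of the 12 fitted values 6 were above 0 and 6 below, with a median of 0.003 against -0.003 over all tested regions. The 95% intervals of all 12 lay between -1.05 and 0.75. At 0 of 12 members did corticosterone and vehicle libraries separate fully in CPM (0.00687% of the list above and 0% below). Within untrained rats 0 of 12 members passed in edgeR and DESeq2 and 0 had an unadjusted p under 0.05 (0% and 2.69% of the list).

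Dusp1-P1 was the single pCREB region of the Dusp1 window (chr10:16970050-16971125, 1076 bp), with a gap of 27140 bp to Dusp1-G1. It had 13, 85, 48 and 34 reads in untrained vehicle libraries A to D and 100, 63, 44 and 45 in untrained corticosterone. It had 96, 148, 32 and 34 reads in trained vehicle and 16, 68, 26 and 76 in trained corticosterone. The ranges overlapped in every comparison, and trained vehicle B, at 350 CPM, was the highest library. Mean levels were 109 ± 53.9, 133 ± 34.1, 175 ± 126 and 118 ± 34.3 CPM in the order of conditions used above (SD, n = 4 each). Corticosterone gave a log2 fold change of -0.15 (95% interval -0.73 to 0.42, adjusted p = 0.931 in edgeR). Leaving out trained vehicle B turned it to 0.13. The interaction with training was -0.83 (-1.99 to 0.32, adjusted p = 0.999 in edgeR), from 0.26 in untrained and -0.57 in trained rats.

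In the Fkbp5 window, the pCREB region with the largest fitted corticosterone value was Fkbp5-P4 (chr20:8088857-8089217, 361 bp), 2606 bp to the left of Fkbp5-G4. Reads in libraries A to D were 8, 17, 3 and 7 in untrained vehicle and 16, 18, 12 and 10 in untrained corticosterone. They were 13, 11, 16 and 10 in trained vehicle and 9, 14, 9 and 11 in trained corticosterone. Its 9 reads in trained corticosterone A correspond to 71.8 CPM, because that library is the shallowest, and the other 3 libraries of that condition lay between 22.3 and 24.9 CPM. The fitted log2 fold change was 0.18 (-0.38 to 0.75, adjusted p = 0.907 in edgeR), and -0.01 without untrained vehicle C. The other pCREB regions of this window were Fkbp5-P1 (chr20:7960426-7960990), Fkbp5-P2 (chr20:7965011-7965327), Fkbp5-P3 (chr20:7966047-7966733) and Fkbp5-P5 (chr20:8163943-8164556). Their reads over the 16 libraries ranged from 10 to 41, 1 to 19, 10 to 59 and 9 to 53, and the vehicle and corticosterone libraries overlapped at each. Their fitted values were 0.02, 0.07, -0.01 and -0.15.

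The Per1 window held the pCREB values farthest below 0. Per1-P2 (chr10:55675302-55675967, 666 bp) had 16, 56, 34 and 39 reads in untrained vehicle libraries A to D and 40, 41, 23 and 24 in untrained corticosterone. It had 54, 129, 29 and 26 reads in trained vehicle and 8, 45, 28 and 68 in trained corticosterone. As at Dusp1-P1, trained vehicle B was the highest library, at 305 CPM, and the groups overlapped. Mean levels were 92.6 ± 25.5, 67.7 ± 7.75, 137 ± 113 and 89.5 ± 33.1 CPM in the same order (SD, n = 4 each). The fitted log2 fold change was -0.51 (-1.05 to 0.03, adjusted p = 0.840 in edgeR), and the values without 1 library ranged from -0.66 to -0.13.

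Per1-P5 (chr10:55710095-55710866) and Per1-P4 (chr10:55683572-55684024) had log2 fold changes of -0.44 (-0.96 to 0.09) and -0.38 (-0.85 to 0.09). Per1-P5 was the 1 pCREB member with an unadjusted p under 0.05 within trained rats, at -0.80 (-1.54 to -0.06), with an adjusted p of 0.780 in edgeR. In that comparison 0 of 12 members passed in edgeR and DESeq2, and 0% of the whole list passed and 5.94% had an unadjusted p under 0.05. Per1-P1 (chr10:55651115-55651658), Per1-P3 (chr10:55676133-55676418) and Per1-P6 (chr10:55737471-55737902) had values of 0.05, 0.10 and 0.02, with 22 to 48, 4 to 27 and 10 to 55 reads. Per kb of width the pCREB members ran from 77.8 CPM per kb at Per1-P5, the 12.8 percentile of the pCREB list, to 164 CPM per kb at Per1-P1, the 90 percentile.

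**Figure D4:**
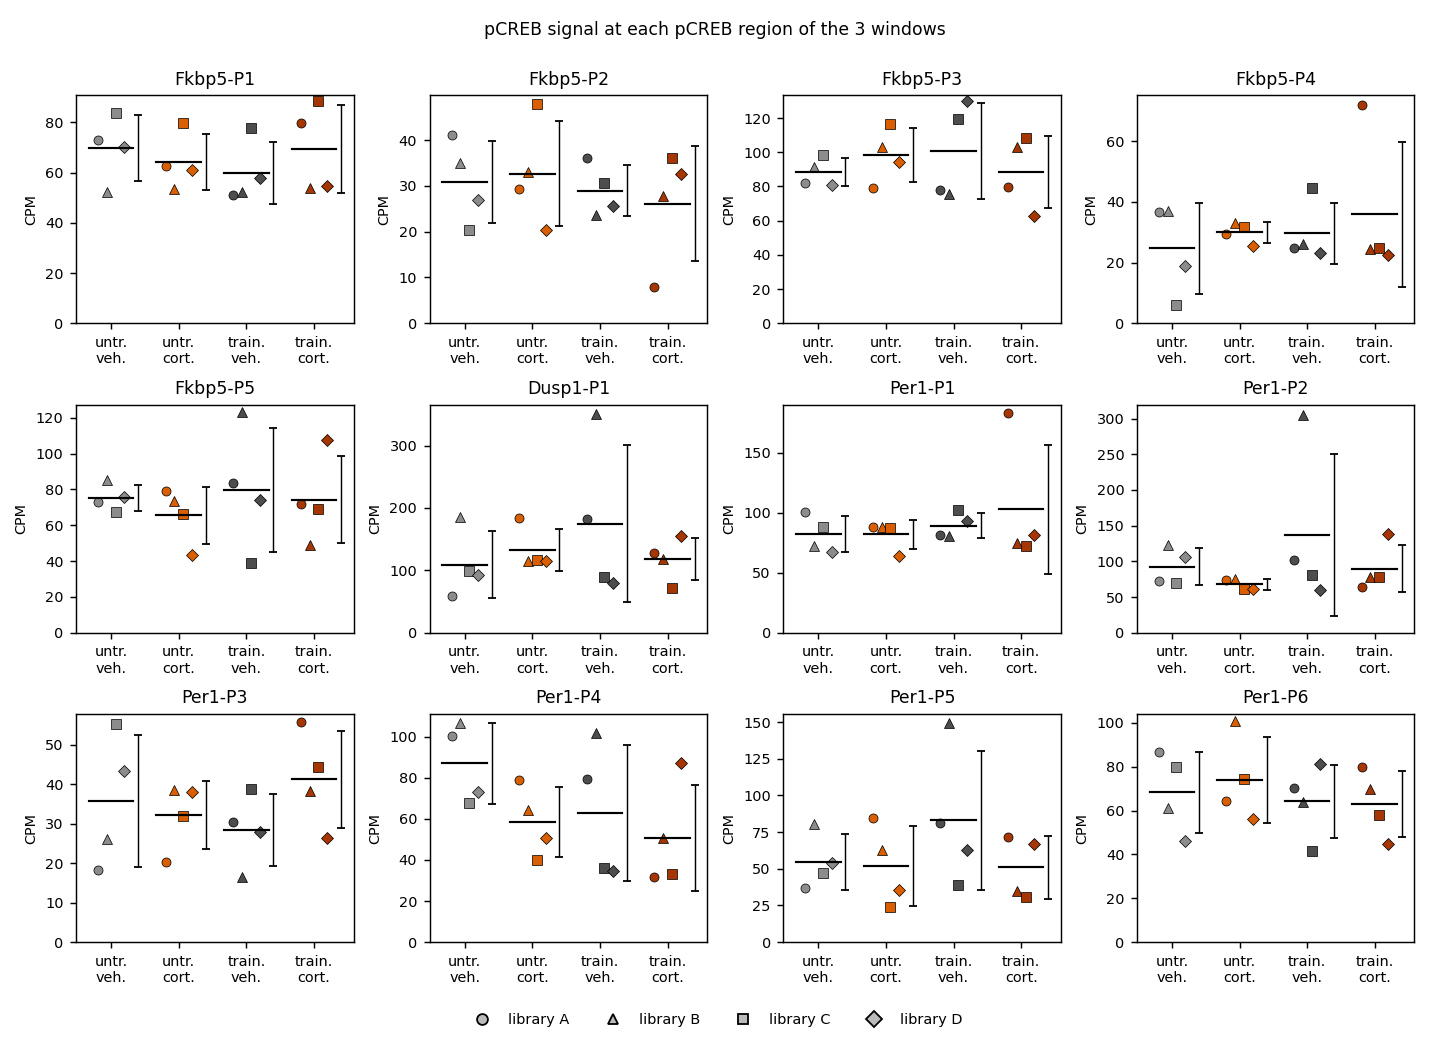
pCREB signal in CPM at each of the 12 pCREB regions, drawn as for GR (1 mark per library, line for the mean and bar for the SD of 4 libraries). Vehicle and corticosterone marks overlap at all 12 regions, and trained vehicle B stands highest at Dusp1-P1 (350 CPM) and Per1-P2 (305 CPM).

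Training gave no pCREB difference that passed the test at a member. In the average over treatment 0 of 12 passed in edgeR and 0 in DESeq2, and 0 had an unadjusted p under 0.05, while 0% of the list passed in edgeR, 0.0137% in DESeq2 and 2.87% had an unadjusted p under 0.05. Values ran from -0.28 at Per1-P4 to 0.50 at Per1-P2 (-0.04 to 1.04), with an adjusted p of 0.999684 at every member in edgeR. The interaction test also gave 0 of 12 in edgeR and 0 in DESeq2, with 0 at an unadjusted p under 0.05, against 0% and 3.3% of the list. Within vehicle and within corticosterone 0 of 12 members passed in edgeR and DESeq2, with 0 at an unadjusted p under 0.05 in each (3.13% and 3.11% of the list).

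Where GR and pCREB regions overlapped, the same pools can be set side by side, although the 2 lists differ in width and depth and no test was made between antibodies. At Fkbp5-G1 and Fkbp5-P3, which share 687 bp, the corticosterone log2 fold changes were -0.20 (SE 0.189) for GR and -0.01 (SE 0.202) for pCREB. At Per1-G2 and Per1-P4, which share 339 bp, they were -0.01 (SE 0.331) and -0.38 (SE 0.231). At Per1-G1 and Per1-P1, which share 469 bp, they were -0.07 (SE 0.261) and 0.05 (SE 0.206). At Per1-G4 and Per1-P6, which share 387 bp, they were -0.25 (SE 0.211) and 0.02 (SE 0.197). The nearest pCREB region was 27140 bp from Dusp1-G1, 32105 bp from Fkbp5-G3 and 2606 bp from Fkbp5-G4.

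Across the 16 GR libraries some members moved together. As a description, log2 CPM of Dusp1-G1 went with that of Fkbp5-G4 (Pearson r = 0.924) and Fkbp5-G3 (0.888). The libraries share depth and condition, and condition means were not removed, so that regions both higher with corticosterone correlate through that difference. Since GR values with corticosterone chose the windows, nothing is read from these r values or from the similar regions below. Fkbp5-G6 and Fkbp5-G7, whose vehicle and corticosterone libraries overlapped, went together at 0.968, and Fkbp5-G6 went with Per1-G3 at 0.939 and with Per1-G2 at 0.881. Fkbp5-G1 ran the other way from Per1-G2, at -0.621. The GR regions elsewhere with the pattern most like Dusp1-G1 were chr10:59884799-59885334 (r = 0.956), chr2:31133251-31133561 (0.935) and chr1:78999395-78999862 (0.928). Those most like Fkbp5-G4 were chr4:149076668-149076918 (0.957), chr15:58884552-58885070 (0.946) and chr6:33627863-33628264 (0.944). Those most like Per1-G3 were chr1:141917786-141918075 (0.963), chr1:124775793-124776310 (0.958) and chr11:79117933-79118454 (0.947).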

How the data were processed

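The deposited table holds raw counts of reads, not normalized by the authors, with 1 list of regions for GR and 1 for pCREB, per the file headers. Tools named per the submitters' processing notes were HTSeq 0.6.1-1, bedtools 2.26.0, MACS2 2.1.1.20160309 and BWA 0.7.10, with build rn6; the sources used here do not give their settings. Peak call names beside each region show that peaks were called per library and merged. Per the labels' protocols, libraries had 15 PCR cycles and single reads of 51 and 65 bp. The 4 input libraries were not analysed here. Replicates are separate pools of rats, and in a check no pair of libraries of a condition was a duplicate (lowest chi-square per degree of freedom 1.79 for GR and 1.30 for pCREB over 24 pairs each). Mitochondrial regions took 7.66% to 23.0% of GR and 2.05% to 8.65% of pCREB reads.

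One edgeR 4.0.16 quasi-likelihood model (R 4.3.3, limma 3.58.1, robust, TMM, filterByExpr by condition) with 4 condition means was used for each antibody's 16 libraries. It kept 4968 GR and 14553 pCREB regions, and p-values were adjusted over all of them (Benjamini-Hochberg, threshold 0.05). Standard errors were derived as the absolute log2 fold change over the square root of F. Alternatives were DESeq2 1.42.0, total-count and RLE scaling, no mitochondrial regions, no filter, the library letter as a block, other thresholds, fits of 8 libraries and each library left out. 2 more were chosen after seeing the data: leaving out the 3 GR libraries with the fewest peak calls and the 2 shallowest pCREB libraries. The tests were also run on counts simulated with the fitted spread. Such counts cannot test the model against these data, and the outcome is not given here.

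Reads in every library are given, by rule, for the GR region with the largest average corticosterone log2 fold change and the pCREB region with the largest absolute one in each window; similar regions are the 3 with the highest Pearson r of log2 CPM outside the windows. Parts of the rule that needed an rn6 annotation or sequence were not run. The members, lists and tests were chosen with earlier results of these data known. Promoter sequences are from RefSeq, build GRCr8; all 3 genes matched, and only the bases before the start were used.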

Additional observations from a re-analysis of the deposited data

Results flagged for a closer look

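In 96 groups of 4 libraries (24 regions in 4 conditions), 6 had 1 library far from the other 3 by Dixon's test, and chance gives about 1 in 20 groups. At Fkbp5-G3 the GR library trained corticosterone C had 426.6 CPM (60 reads), against 591 to 624.1 CPM in the others. At Fkbp5-P4 the pCREB library trained vehicle C had 44.4 CPM, against 23.21 to 26.04, and trained corticosterone A had 71.76 CPM (9 reads), against 22.34 to 24.94. At Dusp1-P1 untrained corticosterone A had 183.8 CPM, against 114.4 to 116.8. At Per1-P1 untrained corticosterone D had 63.58 CPM, against 87.62 to 88.22, and trained corticosterone A had 183.4 CPM (23 reads), against 72.06 to 81.24. Trained corticosterone A is the shallowest pCREB library, where 1 read is worth 7.97 CPM.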

How the results depend on the processing

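The GR corticosterone contrasts were used to choose the windows, so that the stability of their calls supports nothing and their counts only describe the settings. Averaged over training, Dusp1-G1, Fkbp5-G3 and Fkbp5-G4 were called in all 23 alternative fits, and the count of 3 was 4 with no filter, without untrained vehicle B and without the 3 GR libraries with the fewest peak calls. Within untrained rats the count of 1 became 2 with total-count scaling, with the letter as a block and without those 3 libraries, 0 in a fit of the 8 untrained libraries (2 with an unadjusted p under 0.05), and 1 to 3 with 1 library left out. Within trained rats the count of 1 became 2 with DESeq2, total-count scaling, the block and the fit of 8 libraries, 3 without the 3 libraries, and 1 to 2 with 1 library left out. In the other contrasts 0 members were called in any alternative. The cause was not tested.

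Over the alternative fits both signs occurred for corticosterone at 2 GR members (Per1-G1, Per1-G2) and 8 pCREB members (all except Fkbp5-P5, Per1-P2, Per1-P4 and Per1-P5), and for training at 6 GR members (Fkbp5-G1, Fkbp5-G3 and the Per1 regions) and 7 pCREB members (Fkbp5-P2 to Fkbp5-P5, Dusp1-P1, Per1-P3, Per1-P5). Among the regions named by rule these were Fkbp5-P4 (corticosterone -0.0123 to 0.391 and training -0.0658 to 0.335 with 1 library left out), Dusp1-P1 (corticosterone -0.275 to 0.129, training -0.0538 to 0.436) and Per1-G3 for training (-0.342 to 0.199, 0.0352 with total-count scaling and 0.0360 without the 3 GR libraries). Libraries were not treated as paired by letter, since not every same-letter pair correlated above 0.1. Moderate pairing can fail this strict rule, so that the rule does not show that pairing is absent. Same-letter deviations correlated at -0.202 to 0.487 for GR (median 0.0745, 11 of 24 above 0.1, against a median of -0.0632 for different letters). For pCREB they correlated at -0.337 to 0.508 (median 0.116, 13 of 24 above 0.1, against -0.0603), and 5 GR and 6 pCREB libraries of 16 each were closest to their own letter. The block changes given above are not read as a weaker or stronger effect. Any overlap with the window gave the same 24 regions, and an overlap of 50% of the shorter region the same 4 pairs. A single GR read is worth up to 23.8 CPM, which limits Fkbp5-G2, Fkbp5-G4 and the vehicle values of Dusp1-G1.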
